A study of Bos taurus with 16 samples.

Results

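In whole blood of 16 crossbred beef steers, 52 of the 27607 genes in the deposited tables varied widely between animals, and 30 of the 52 divided the steers into a high and a low class, while the steers of the other 22 did not fall into 2 such classes. The 52 genes, here called on/off genes as a working name, were selected on the normalized counts, which are raw counts divided by a size factor per steer. The mean over the 16 steers had to be at least 30, and the value of the steer ranked 3 from the top, plus 1, at least 6 times that of the steer ranked 3 from the bottom, plus 1. Genes with identifier numbers from 42000 to just under 46000 and 10 further identifiers were left out, which removed 3 genes that passed both thresholds. The mean alone was reached by 11074 genes outside these identifiers. Since the spread selected the genes, the spread and the classes of steers are given as a description without a test. The selection did not use the labels of the steers, and the comparison of the labels was tested. A difference between labels could still help a gene to pass the thresholds.

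Residual feed intake (RFI) is the feed an animal eats beyond what its body weight and gain predict. The study selected 8 steers labelled high-RFI, numbered 9 to 16, and 8 labelled low-RFI, numbered 1 to 8, all crossbred and on 1 silage-based diet. Each steer gave 1 library from blood pooled over several collection days, after removal of ribosomal and globin RNA. Pens and batches are not named for single steers. The libraries held between 4.80 and 12.2 M counts on genes, with means of 8.72 ± 2.23 M in low-RFI and 8.15 ± 1.09 M in high-RFI (SD, n = 8 each).

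Whole blood RNA comes from red cell precursors, platelets and several kinds of white cells, whose proportions vary between animals. A gene may be read in some animals and not in others where the animals carry different alleles or numbers of gene copies, or where the cells that use it are present in different numbers. In bulk blood, fewer cells of a type and less RNA per cell cannot be told apart. The files list Ensembl identifiers that no table used here pairs with a symbol. The genes are therefore given by identifier, their functions are not described, and markers of blood cells could not be read to check the labelled tissue.

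The ratio that chose the genes had a median of 13.1 over the 52 genes and ran from 6.02 to 551. Their mean normalized counts ran from 30.1 to 3117, with a median of 89.3. Gene lengths recovered from the deposited FPKM ran from 153 to 15133 bp with a median of 1922 bp, against 2497.5 bp over the 11074 genes. Identifier numbers from 46000 belonged to 17 of the 52 genes, or 32.7%, against 12% of the 11074. The mean was at least 30 in each label for 46 of the genes, in low-RFI alone for 4 and in high-RFI alone for 2. The genes just inside the threshold were ENSBTAG00000037644, ENSBTAG00000006626 and ENSBTAG00000008951, with ratios of 6.02, 6.55 and 6.76. Just outside lay ENSBTAG00000020657, ENSBTAG00000001125 and ENSBTAG00000011467, with ratios of 5.99, 5.98 and 5.72.

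To describe how far the steers fell apart, the values of each gene were sorted on the scale log2(normalized count + 1), and the largest gap between neighbours with at least 2 steers on each side was taken. A gene was said to have 2 classes of steers when this gap was at least 1, a 2-fold empty interval, and no gap elsewhere among its steers was larger. By this measure 30 of the 52 genes had 2 classes, beside 1.11% of the 11074 genes of that mean, a count that the choice of genes favours. Of the 49 genes that passed the filter of the label test below, 29 had 2 classes, beside 1.33% of all genes that passed it. The median gap of the 30 genes was 2.26, or 4.79-fold. Over all 52 genes it was 1.59, and over the 11074 genes 0.14. The gap was at least 2 in 16 of the 30 genes. Above the gap lay between 2 and 14 steers. In 11 genes there were at least 5 steers on each side, in 7 the upper class held 2 to 4 steers, and in 12 the lower class held 2 to 4.

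**Figure D1:**
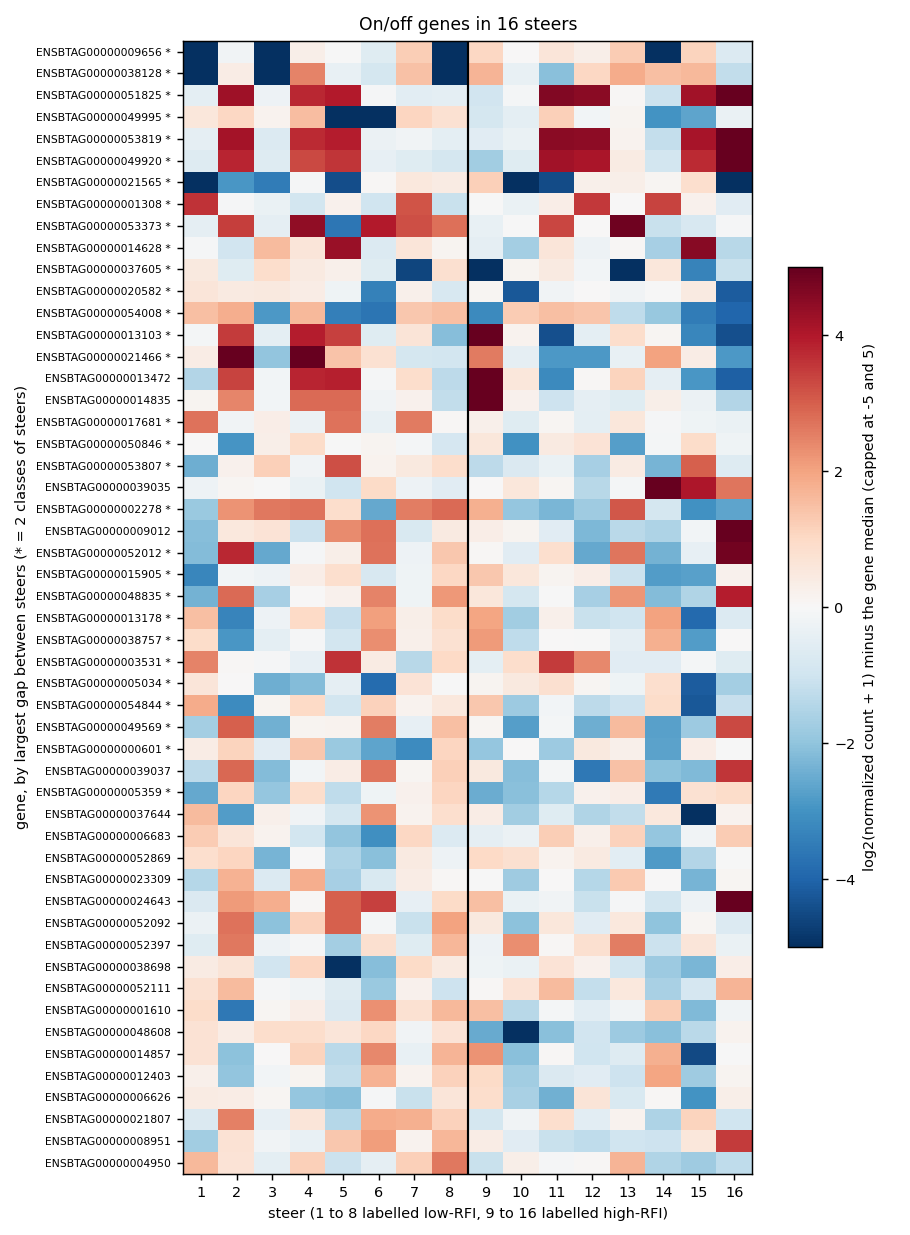
Heat map of log2(normalized count + 1), less the gene's median over steers, for the 52 genes (rows, by size of the largest gap) in the 16 steers (columns, low-RFI left and high-RFI right of the line). Dark red and dark blue cells occur on either side of the line, and the genes marked with an asterisk are the 30 with 2 classes of steers.

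**Figure D2:**
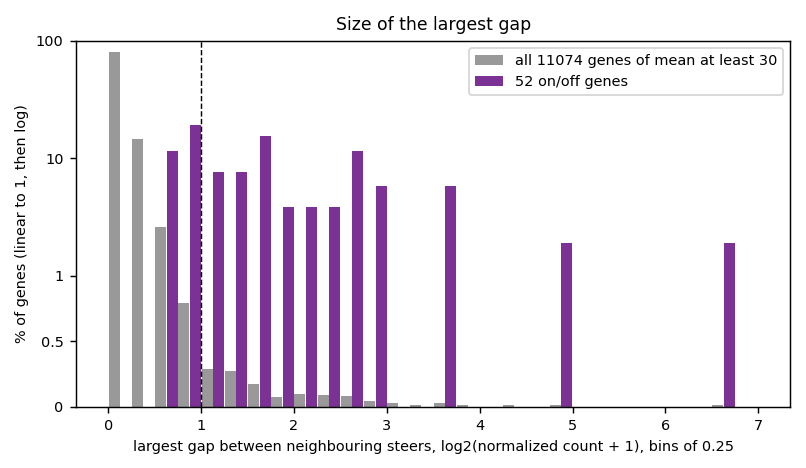
Share of genes (percent, linear up to 1 and then logarithmic) by size of the largest gap on the log2(normalized count + 1) scale, for the 11074 genes of mean at least 30 (grey) and the 52 on/off genes (purple). Of all these genes 80.8% had a gap under 0.25 and 1.22% a gap of at least 1, against 36 of the 52 on/off genes.

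A steer was called off for a gene at 3 raw counts or fewer. At least 1 steer was off in 22 of the 52 genes and at least 2 steers in 12, beside 0.253% and 0.117% of the 11074 genes. In the other 30 genes the low steers still had more than 3 raw counts, so these genes were lower there and not unread. Steers were off for between 0 and 7 of the 52 genes, the most in steer 15 with 7.24 M counts. Steer 4, the shallowest library with 4.80 M counts, was off for 2 genes.

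The widest gap was that of ENSBTAG00000009656, 1532 bp long, with a median of 38.3 FPKM. Steers 1, 3, 8 and 14 had 0, 0.891, 0 and 2.30 normalized counts of it, and the other 12 steers had 301 to 1158. The low steers together had 3 raw counts in 35.1 M counts (exact Poisson 95% interval 0.619 to 8.77, counting error only), against 8137 raw counts in 99.9 M in the others. The gap was 6.52 on the log2 scale. The second widest was that of ENSBTAG00000038128, 1701 bp long. Steers 1, 3 and 8 had 0, 0.891 and 0.967 normalized counts of it, together 2 raw counts in 28.0 M (exact Poisson 95% interval 0.242 to 7.22). The other 13 steers had 57.9 to 1405, steer 14 among them with 705. The same 3 steers labelled low-RFI were therefore lowest in these genes, while steer 14, labelled high-RFI, was low in ENSBTAG00000009656 and not in ENSBTAG00000038128. Steers 1, 3 and 8 were the lowest 3 steers in 8 of the 11074 genes of mean at least 30.

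Other genes were at or near 0 in a few steers only. ENSBTAG00000049995 had 0 and 2.73 normalized counts in steers 5 and 6 and 43.7 to 1036 in the rest, with a gap of 3.58. ENSBTAG00000020582 had 4.78, 2.19 and 2.36 in steers 6, 10 and 16 and 32.9 to 90.9 in the rest. ENSBTAG00000015905 had 2.16, 3.45 and 3.65 in steers 1, 14 and 15 and 13.4 to 76.1 elsewhere. The low steers of ENSBTAG00000020582 and ENSBTAG00000015905 came from both labels, and those of ENSBTAG00000049995 from low-RFI alone. ENSBTAG00000005034 was low in steers 6 and 15, with 4.78 and 3.65, against 14.3 to 149. Its gap rests on few reads, with up to 7 raw counts below it and at least 11 above.

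In other genes with a high median FPKM, the low steers were lower without being unread. ENSBTAG00000037605, 1132 bp long with a median of 311 FPKM, had 10.6 and 18.1 normalized counts in steers 9 and 13, 119 and 289 in steers 7 and 15, and 1340.4 to 5367 in the other 12. Its steers thus lay at separated levels. Steers 9, 13 and 15 are labelled high-RFI and steer 7 low-RFI. ENSBTAG00000050846, with a median of 94.4 FPKM, had 262, 248 and 299.6 in steers 2, 10 and 13 and 1136 to 3824 in the other 13. The low steers of this gene differed by 1.21-fold among themselves, on the scale of normalized count plus 1.

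In 11 genes each class held at least 5 steers. ENSBTAG00000054008, 3843 bp long, split the steers evenly. Its upper 8 steers, 1, 2, 4, 7, 8, 10, 11 and 12, had 256 to 374 normalized counts, a range of 1.46-fold. The lower 8 had 5.89 to 42.9, from steer 16 to steer 13. ENSBTAG00000021565 had 167 to 399 in 9 steers and 0 to 22.5 in the other 7, of which steers 1, 10 and 16 were off. ENSBTAG00000053373 had 82.2 to 351 in steers 2, 4, 6, 7, 8, 11 and 13 and 0 to 11.4 in the other 9. ENSBTAG00000002278 had 105 to 506 in steers 2, 3, 4, 5, 7, 8, 9 and 13 and 6.08 to 31.0 in the rest. These 4 genes put different steers high, and every upper and lower class held steers of both labels. Narrower gaps of this kind were found in ENSBTAG00000000601, with 23.2 to 90.1 in 10 steers and 3.08 to 9.37 in 6, and in ENSBTAG00000005359, with 56.0 to 136 in 9 and 4.60 to 25.8 in 7.

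**Figure D3:**
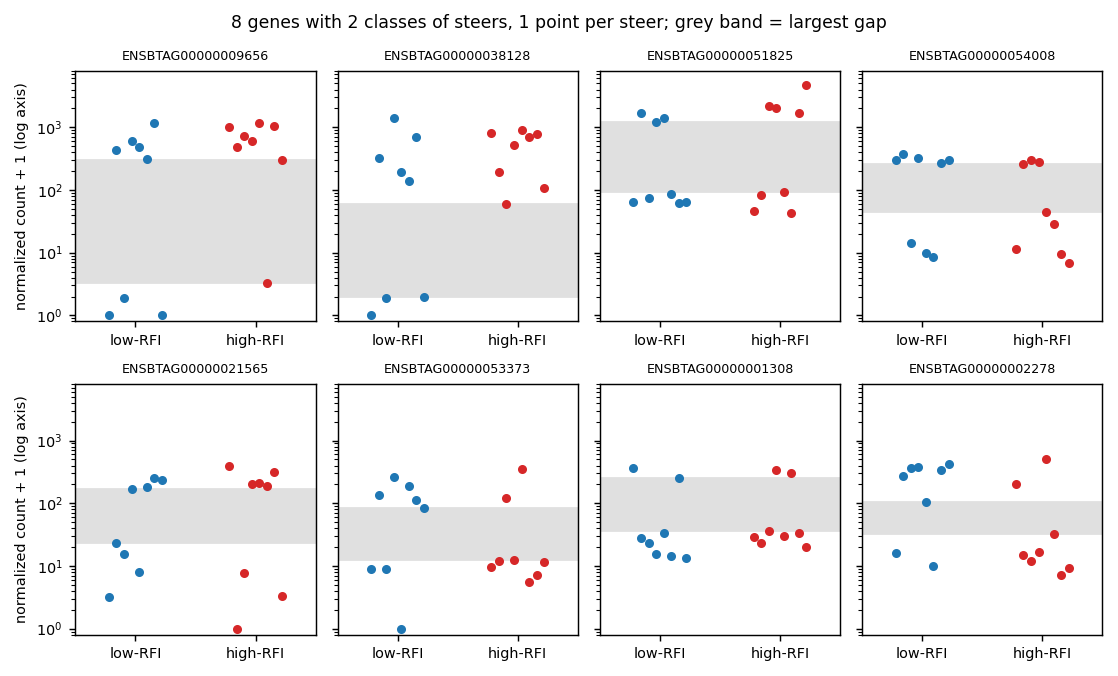
Normalized count plus 1 (log axis) of 8 genes with 2 classes of steers, with 1 point per steer and the labels side by side (low-RFI blue, high-RFI red). The grey band is the largest gap, and points of either label lie below and above it in all 8 panels except that of ENSBTAG00000038128, where all 8 high-RFI steers lie above.

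In 7 genes the upper class was small. ENSBTAG00000001308 had 359, 254, 337 and 298 normalized counts in steers 1, 7, 12 and 14, a range of 1.41-fold, and 12.6 to 35.8 in the other 12. ENSBTAG00000017681 had 164, 162 and 151 in steers 1, 5 and 7 and 15.3 to 36.3 in the other 13. ENSBTAG00000003531, the longest of the genes at 15133 bp, had 150.0, 331, 303 and 140.4 in steers 1, 5, 11 and 12 and 9.24 to 52.2 elsewhere. ENSBTAG00000021466 had 254 and 265 in steers 2 and 4 and 0 to 44.4 in the rest, with 6 steers off. The high steers of ENSBTAG00000001308 and ENSBTAG00000003531 came in equal number from each label, and those of ENSBTAG00000017681 and ENSBTAG00000021466 from low-RFI alone. Across the 30 genes with 2 classes, the upper class stayed within 2-fold in 6 genes and within 4-fold in 17, and spanned more than 10-fold in 7, on the scale of normalized count plus 1.

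Some genes put the same steers on the same side of their gap. Among the 435 pairs of the 30 genes with 2 classes, 8 pairs placed all 16 steers alike and 1 pair, ENSBTAG00000009656 with ENSBTAG00000038128, placed 15 alike. These 8 pairs came from 4 sets of genes, and further genes and 1 further set were found when the highest or lowest steers were compared, a comparison made after the values had been seen.

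The first set was ENSBTAG00000051825, ENSBTAG00000053819 and ENSBTAG00000049920, each 191 bp long. Steers 2, 4, 5, 11, 12, 15 and 16 were high in all 3 genes, with 1229 to 4772 normalized counts of ENSBTAG00000051825, 1286 to 5027 of ENSBTAG00000053819 and 893 to 3667 of ENSBTAG00000049920. The other 9 steers had 41.4 to 92.6, 41.4 to 109 and 26.4 to 122 of them. Steer 16 was highest in each. The ratio of ENSBTAG00000053819 to ENSBTAG00000051825 stayed between 0.819 and 1.44 over the steers, with a median of 1.05. No other gene tested had this division of steers. Genes of equal length and near-equal counts may be copies among which the authors' counting could divide reads, so their values are uncertain and may not be separate measurements.

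The second set was lowest in steers 2, 10 and 15. It held ENSBTAG00000013178, ENSBTAG00000054844, ENSBTAG00000038757, ENSBTAG00000037644, ENSBTAG00000001610, ENSBTAG00000012403 and ENSBTAG00000014857, 7 of the 52 genes, beside 0.199% of the 11074. The most abundant was ENSBTAG00000013178, with 155, 461 and 103 normalized counts in steers 2, 10 and 15 and 676 to 6236 in the rest. ENSBTAG00000054844 had 34.9, 88.6 and 15.8 in these steers and 126 to 1147 in the rest. ENSBTAG00000037644 had 11.2, 24.1 and 0, and 29.0 to 396 elsewhere. Only ENSBTAG00000013178, ENSBTAG00000054844 and ENSBTAG00000038757 of this set had 2 classes. Their lower class was steers 2 and 15 alone, and steer 10 lay above the gap. Steers 6, 9 and 14 were among the highest 5 in all 7 genes. Above the gap, the steers of ENSBTAG00000013178 rose by steps from 461 in steer 10 to 6236 in steer 6, through intermediate values. This gene was thus graded above steers 2 and 15. The ratio of ENSBTAG00000013178 to ENSBTAG00000001610 varied from 7.73 to 39.9 over steers, so the genes did not move in strict proportion.

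The set highest in steers 2, 4, 5 and 9 held ENSBTAG00000013103, ENSBTAG00000013472 and ENSBTAG00000014835. The same 4 steers were the highest 4 in 7 of the 11074 genes, these 3 included. Steer 9, labelled high-RFI, had 1306, 1328 and 626 normalized counts of the 3 genes of the set. Steers 2, 4 and 5, labelled low-RFI, had 242, 322 and 223 of ENSBTAG00000013103, 175, 237 and 245 of ENSBTAG00000013472 and 84.3, 113 and 111 of ENSBTAG00000014835. The other 12 steers had 0 to 38.2, 0 to 35.3 and 4.72 to 18.4. Steer 16 had no raw count of ENSBTAG00000013103 or ENSBTAG00000013472 and 4.72 normalized counts of ENSBTAG00000014835. The gap above steers 2, 4 and 5 was the larger one in ENSBTAG00000013472 and ENSBTAG00000014835, so that only ENSBTAG00000013103 is counted among the genes with 2 classes.

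A further set was highest in steers 2, 6, 8, 13 and 16 and held ENSBTAG00000048835, ENSBTAG00000049569, ENSBTAG00000039037 and ENSBTAG00000052012. The same 5 steers were highest in 5 of the 11074 genes, these 4 included. In these steers ENSBTAG00000048835 had 141, 109, 89.9, 91.6 and 301 normalized counts and ENSBTAG00000049569 had 232, 168, 81.2, 86.8 and 288. The other 11 steers had 2.89 to 28.6 and 3.28 to 32.0. ENSBTAG00000039037 had 236, 208, 74.4, 88.7 and 388 in the 5 steers and 1.76 to 45.5 in the rest. ENSBTAG00000052012 had 151, 72.4, 27.1, 70.6 and 316, and 0.878 to 18.7 in the rest, where steers 1, 3, 12 and 14 were off. Its 2 classes were these 4 off steers and the other 12. That gap lies near the floor, with up to 2 raw counts below it and at least 6 above. Steers 2, 6 and 8 are labelled low-RFI, and steers 13 and 16 high-RFI.

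The last set was ENSBTAG00000014628 and ENSBTAG00000053807, high in steers 5 and 15. Steer 5, labelled low-RFI, had 1569.8 and 15202 normalized counts of them, and steer 15, labelled high-RFI, 1859 and 12978. The other 14 steers had 23.0 to 237 of ENSBTAG00000014628 and 299 to 3801 of ENSBTAG00000053807. These 2 genes belong to a far larger group. Of the 176 genes tested that had 2 classes of steers, 81, or 46.0%, had steers 5 and 15 alone in the upper class. The mean of these 2 steers, plus 1, was between 2.30 and 36.6 times the median of the other 14, plus 1, in these genes, with a median of 5.39. Steer 15 was the higher one in 66 of the 81 genes. Because the choice of on/off genes rests on the third highest steer, 69 of the genes with a mean of at least 30 were not chosen, their ratio being below 6. Without this group, 28 of the 52 remaining genes of that mean with 2 classes were on/off genes.

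**Figure D4:**
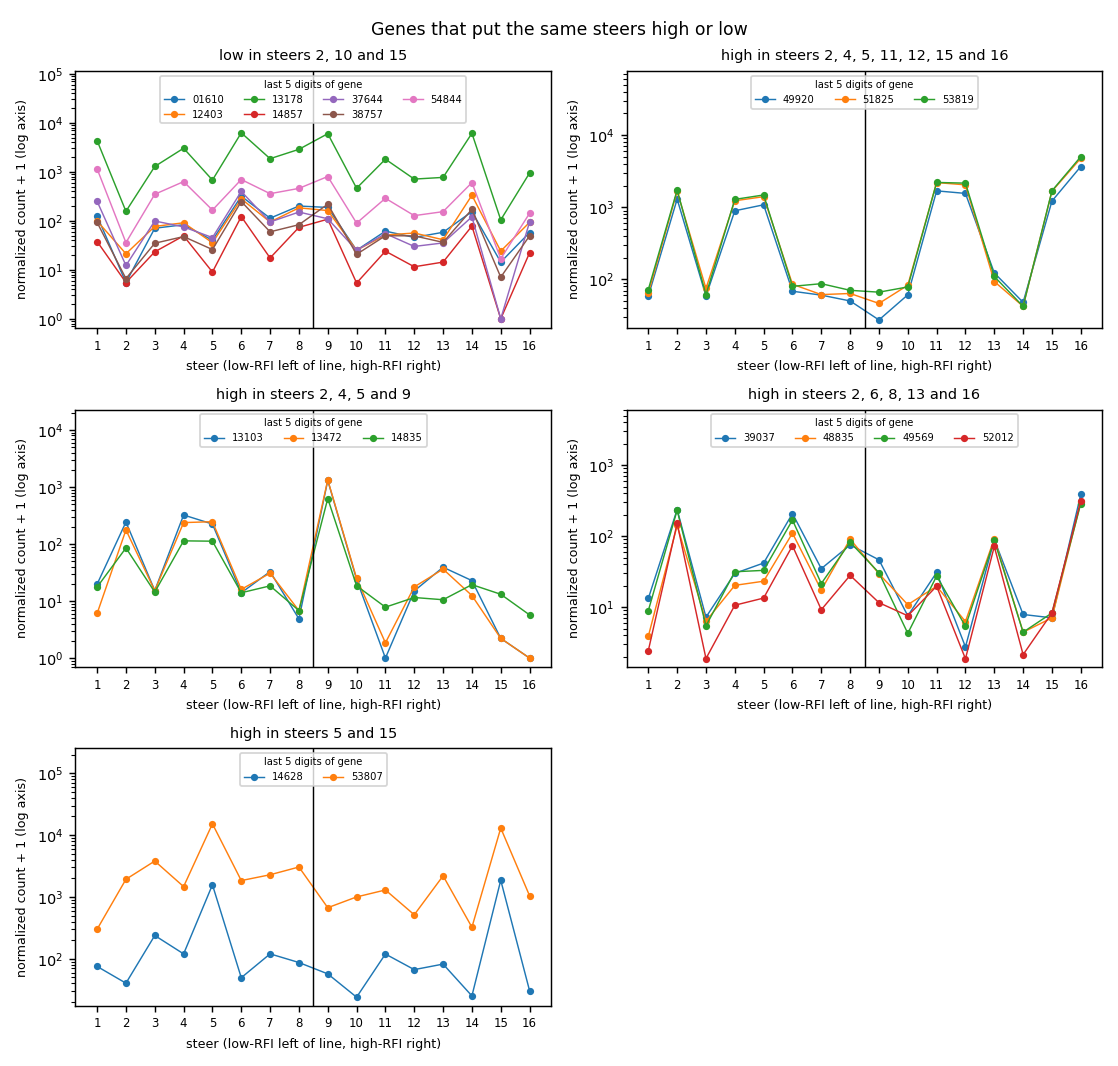
Normalized count plus 1 (log axis) by steer for the 5 sets of genes that put the same steers high or low, with 1 line per gene. The lines of a set rise or fall together at the steers named above each panel, most closely for the 3 genes of 191 bp, and in every set the high steers lie on both sides of the line between labels.

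Other genes had 1 steer far above the rest. ENSBTAG00000039035 had 1050.0 normalized counts in steer 14, 118 and 46.0 in steers 15 and 16, and under 13 in steers 1 to 13. ENSBTAG00000009012 had 2114 in steer 16 and 5.27 to 197 in the others. ENSBTAG00000024643 had 343 in steer 16 and 0.878 to 41.7 in the others, of which 9 were off. Steer 16 was the highest steer in 12 of the 52 genes and steer 15 the lowest in 9. Both counts include genes of the sets above that share a profile, which are not separate observations. Neither count was set beside the genes outside the selection. Whether these steers are as often extreme there was therefore not tested. Of the 22 genes without 2 classes, 13 had a gap of at least 1 somewhere among their steers and 9 had none. In some of these 9 the largest gap came close to that limit, as in ENSBTAG00000052869 with 0.936. On the scale of normalized count plus 1, the highest steer of these 22 genes was at least 11.7 times the lowest, with a median of 48.0 times.

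Whether the classes follow the RFI label was tested gene by gene for the 30 genes with 2 classes. The two-sided Fisher's exact test of class against label gave a p under 0.05 for 0 of them, beside 0% of the 123 genes of mean at least 30 with 2 classes. This test can reach 0.05 only with at least 5 steers on each side, as in 11 of the 30 genes and 13 of the 123. The 0% over the 123 genes was therefore nearly fixed in advance. In the 11 genes its p ran from 0.132 to 1. With 2, 3 or 4 steers in the smaller class the smallest p the test allows is 0.467, 0.2 or 0.0769. The lowest p, 0.132, was that of ENSBTAG00000002278, for which 6 of 8 steers labelled low-RFI and 2 of 8 labelled high-RFI lay above the gap. In this gene Fisher's exact test gave p = 0.0406 when steer 1 or 6, labelled low-RFI, or steer 9 or 13, labelled high-RFI, was left out, and 0.132 or more in the other 12 cases. In 25 of the 30 genes both classes held steers of both labels. In the other 5, ENSBTAG00000038128, ENSBTAG00000049995, ENSBTAG00000037605, ENSBTAG00000021466 and ENSBTAG00000017681, 1 class of 2 or 3 steers came from a single label. With labels assigned at random, this happens with probability 0.467 for a class of 2 steers and 0.2 for 3. ENSBTAG00000021466 and ENSBTAG00000017681 also reached the mean of 30 only through low-RFI. The same count was not made over the 123 genes, so it is not read as a result about the label. Summed over the 30 genes, the upper class held 138 placings of low-RFI steers and 125 of high-RFI steers. These placings count the same steers in gene after gene, some of which share a split, and are not replicates of the label.

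The quasi-likelihood test of edgeR on raw counts compared the labels over all 13265 genes that pass its filter, which 49 of the 52 genes did. ENSBTAG00000021466, ENSBTAG00000039035 and ENSBTAG00000024643 did not pass and were not tested. At an FDR of 0.05, 0 of the 49 genes differed, beside 0% of all genes tested, and their adjusted p ran from 0.748 to 0.999. At an unadjusted p under 0.05 stood 4 of the 49, or 8.16%, beside 5.22% of all genes tested. All 4 were lower in steers labelled high-RFI, beside 2.45% of all genes lower and 2.77% higher. Of these 4, ENSBTAG00000017681 and ENSBTAG00000052092 reached the mean of 30 over all steers only through low-RFI, where they are high (74.0 and 63.7 normalized counts, against 23.1 and 19.2 in high-RFI), so the count and its direction support nothing about the 52 genes. The log2 fold change of high-RFI over low-RFI was below 0 for 28 of the 49 genes and above 0 for 21, with a median of -0.14 beside 0.0016 over all genes. Its median size regardless of sign was 0.54, beside 0.085 over all genes. Genes chosen for a wide spread between steers tend to differ more between any 2 groups of them. This size is therefore favoured by the selection and says nothing about the label. DESeq2, which replaces outlying counts in groups of this size, called 1 of the 49 genes at an FDR of 0.05, beside 0.0528% of all genes. At an unadjusted p under 0.05 it called 8, or 16.3%, beside 5.46%. Among these 8, ENSBTAG00000014835 and ENSBTAG00000009012 had log2 fold changes of -1.89 and -1.07 in DESeq2 but 0.96 and 2.06 in edgeR. The 8 calls are therefore not read as a result about the label. In 0 of the 49 genes did the groups not overlap, beside 0.0226% of all genes. An exact permutation test, two-sided and over all 12870 assignments of 8 of the 16 steers, was run on the log2(normalized count + 1) values. It gave p under 0.05 for 1 of the 49, ENSBTAG00000048608, beside 5.72% of all genes.

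The gene that came nearest to following the label was ENSBTAG00000048608, 153 bp long with a median of 126 FPKM, which was not among those with 2 classes. Its lowest, median and highest normalized count was 139.7, 258 and 326 in low-RFI, and in high-RFI 2.19, 40.3 and 178. Of the steers labelled low-RFI, 7 of 8 lay above every steer labelled high-RFI, and steer 16, labelled high-RFI with 178, lay above steer 7 with 139.7. The means were 252 ± 57.9 and 58.2 ± 53.6 normalized counts (SD, n = 8 each). The log2 fold change was -2.13 in edgeR (unadjusted p = 0.000149, adjusted p = 0.748), with a standard error of 0.49 and an adjusted p of 0.0303 in DESeq2. The exact permutation test gave p = 0.000311 and an adjusted p of 0.644 over all genes tested. Without steer 16 the adjusted p in edgeR was 0.0174 and the log2 fold change -2.60, and limma voom with sample quality weights gave 0.0135. The adjusted p reached 0.846 over the alternatives that keep all steers and exceeded that with some steers left out. Ranked 3 from the top in this gene was steer 4, labelled low-RFI (290), and 3 from the bottom steer 11, labelled high-RFI (36.6). Their values gave the ratio of 7.72 that selected the gene, so its difference between labels helped to select it. The tests of this gene are therefore not independent of its selection.

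The other 3 genes at an unadjusted p under 0.05 overlapped more widely between the labels. ENSBTAG00000017681 was high in steers 1, 5 and 7 alone, as given above, while the remaining 5 low-RFI steers, with 18.4 to 30.3 normalized counts, lay within the 15.3 to 36.3 of the high-RFI steers. Its log2 fold change was -1.69 in edgeR (adjusted p = 0.926, DESeq2 standard error 0.48), and the exact permutation p was 0.0932. ENSBTAG00000052092 had a lowest, median and highest count of 4.46, 34.0 and 177 in low-RFI and of 4.38, 18.6 and 32.4 in high-RFI, with 4 of 8 low-RFI steers above all high-RFI steers. Its log2 fold change was -1.70 (edgeR adjusted p = 0.937, exact permutation p = 0.163). ENSBTAG00000021807 had 22.2, 117 and 361 in low-RFI and 20.7, 48.9 and 136 in high-RFI, with a log2 fold change of -1.18 (edgeR adjusted p = 0.942, exact permutation p = 0.144). The groups overlapped in all 3 genes. Next in order was ENSBTAG00000037644, at a log2 fold change of -1.30 and an unadjusted p of 0.0576 (edgeR adjusted p = 0.948).

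**Figure D5:**
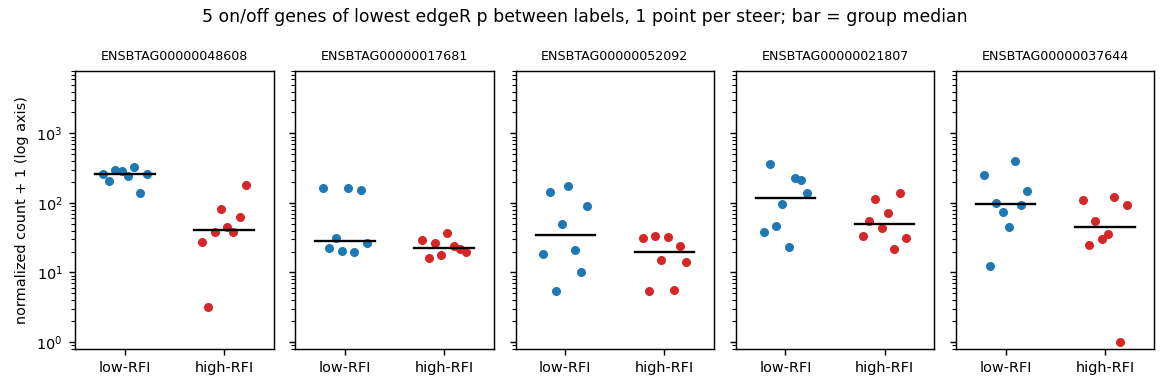
Normalized count plus 1 (log axis) of the 5 on/off genes of lowest edgeR p between labels, with 1 point per steer and a bar at the group median. The groups overlap in every panel, least in that of ENSBTAG00000048608, where 7 of 8 low-RFI steers lie above all high-RFI steers.

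In the genes of widest gap the values spread widely within each label. ENSBTAG00000009656 had 373 ± 395 normalized counts in low-RFI and 665 ± 399 in high-RFI (SD, n = 8 each). The exact permutation test on its log2 values gave p = 0.11. ENSBTAG00000038128, with all of its 3 low steers labelled low-RFI, had 345 ± 489 and 509 ± 345 (exact permutation p = 0.11). ENSBTAG00000051825 had 580.5 ± 716 and 1368 ± 1674 (exact permutation p = 0.44), with 3 low-RFI and 4 high-RFI steers in its upper class. In each of these genes the difference between the means was smaller than the larger of the SDs. The genes were chosen for their spread over these same values, so wide SDs are favoured by the selection. This comparison therefore decides nothing about the label.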

How the data were processed

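Whole-blood RNA of 16 steers was sequenced, 1 library per steer. The deposited raw counts were made by the authors with GenomicAlignments, after trimming (Trimmomatic 0.39), alignment with HISAT2 2.2.1 against the ARS-UCD1.2 assembly and marking of duplicates. For the gene annotation and the strand setting, nothing is given in the sources used here. Besides these counts, the authors deposited normalized counts (a signal that equals the raw count divided by the DESeq2 size factor, 0.622 to 1.46 over steers) and FPKM, from which gene lengths were recovered as whole numbers of bp (100% within 0.01 bp). The submitters' notes list DESeq2 1.30.1 and 1.20.0. Depth on genes is 4.80 to 12.2 M counts per steer, and a count of 3 or fewer was taken as the floor. Poisson intervals cover counting error only.

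Groups are those of the residual food intake label, and all directions rest on it. Samples labelled High have titles that begin with HFE and those labelled Low with LFE, abbreviations that the labels do not spell out. By depth, the group names in the study's list of reads per library appear exchanged against these labels, which was not resolved here, and every direction printed would turn if the labels were exchanged.

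Labels were compared on raw counts with edgeR 4.0.16 (filterByExpr, TMM, robust quasi-likelihood test) in R 4.3.3 over all genes, with Benjamini-Hochberg adjustment. Alternatives were DESeq2 1.42.0, limma 3.58.1, an exact permutation test, other filters and scalings, other thresholds of the selection, and leaving out each steer. The edgeR, DESeq2 and permutation tests and the definition of classes were checked on simulated data. Classes of steers were set against the label with Fisher's exact test. The genes and tests were chosen with earlier results of these data known. Of the 52 genes, the 30 of largest gap and the 5 of lowest edgeR p are named by rule, with those beside the ratio threshold, and others named were picked after their values were seen. Steers are separate animals, so p-values reflect the spread between animals. Marker lists, gene families and sequences were not analysed here, since no table used pairs the identifiers with symbols or positions.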

Additional observations from a re-analysis of the deposited data

Results flagged for a closer look

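In 68 groups of 8 steers (34 genes in each label) the extreme steer was compared with the next by Dixon's ratio. The ratio was taken on the scale log2(normalized count + 1), while the values printed below are normalized counts. On that log2 scale 10 groups passed its 95% critical value, in 10 genes and 9 steers. Chance marks about 1 in 20 groups, and genes with a small class of steers are prone to it by their selection. Among steers labelled high-RFI, ENSBTAG00000009656 had 2.3 normalized counts in steer 14, where the next lowest steer had 301. ENSBTAG00000037644 had 0 in steer 15, where the next lowest had 24.1. ENSBTAG00000048608 had 2.19 in steer 10, where the next lowest had 26.4. The highest steer stood apart in ENSBTAG00000014628 with 1859 in steer 15 (next 118), in ENSBTAG00000014835 with 626 in steer 9 (next 18.4) and in ENSBTAG00000009012 with 2114 in steer 16 (next 36.0).

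Among steers labelled low-RFI, each of the marked steers was the lowest. ENSBTAG00000037605 had 119 normalized counts in steer 7 (next 1892), ENSBTAG00000020582 4.78 in steer 6 (next 32.9), ENSBTAG00000050846 262 in steer 2 (next 1136) and ENSBTAG00000015905 2.16 in steer 1 (next 16.4).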

How the results depend on the processing

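The number of genes depended most on the ratio that selects them. It was 148 with the second highest over the second lowest steer, 26 with the fourth, 105 at a ratio of at least 4 and 30 at a ratio of at least 10. It lay between 41 and 66 with other means, pseudocounts or scaling. The number of genes with 2 classes lay between 21 and 29 under its 4 alternatives.

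At an FDR of 0.05, DESeq2 called 1 gene, limma voom with sample quality weights 1, and edgeR with a steer left out 0 to 1, the call being made without steer 16. Each time the gene was ENSBTAG00000048608. At an unadjusted p under 0.05 stood 8 genes in DESeq2, 2 with limma on log2(normalized count + 1), 2 with limma on log2(FPKM + 0.1), 1 in the exact permutation test, and 3 to 7 with a steer left out (7 without steer 9). All 4 in edgeR were lower in high-RFI, against 2 of 4 with limma voom and 3 of 4 without the filter on low counts. The classes followed the label by Fisher's exact test in 0 to 1 genes with a steer left out, the gene being ENSBTAG00000002278 without steer 1, 6, 9 or 13. In 0 genes were the groups without overlap under FPKM or TMM scaling. The sign of the log2 fold change differed from edgeR's in at least 1 alternative with all steers for 14 of the 49 genes, and with a steer left out for 22. The causes were not tested. No paired analysis was possible because the groups share no replicate number.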
